A study of Mus musculus and Homo sapiens with 10 samples.

Results

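RNA polymerase II (Pol II) and trimethylation of lysine 4 on histone H3 (H3K4me3) were mapped across the genome of NIH3T3 cells, an immortalized line of mouse fibroblasts, by chromatin immunoprecipitation followed by sequencing (ChIP-seq). The 2 peak lists compared here, 30239 peaks for Pol II and 27982 for H3K4me3, were taken whole, so that 58221 of the 156956 peaks in the 7 NIH3T3 lists of the series were used. The whole series holds 10 samples, which also cover the factor UBF, RNA polymerase I (Pol I) and other histone marks in NIH3T3, and 2 human epithelial lines that were not used here. Both lists came from exponentially growing cells of the same line, kept in DMEM with 10% FBS, and no treatment is given for either. The Pol II antibody, clone 4H8, is directed at the C-terminal repeat phosphorylated on serine 5, and the H3K4me3 antibody was from the same vendor.

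Pol II transcribes protein-coding genes. Its largest subunit ends in a long repeated tail, and serine 5 of that repeat is phosphorylated as the polymerase starts transcription and pauses near the promoter. H3K4me3 is placed by SET1 and MLL complexes on the nucleosomes around active start sites and is widely used as a mark of active and poised promoters. The comparison asks how far the polymerase and the promoter mark occupy the same places in these fibroblasts, and how they are arranged where they meet.

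Each list holds only the chromosome, start and end of called peaks on build mm9, with no score, height or read count. The sequencing depth is unknown and a peak that is missing from a list may lie below its threshold. There is 1 list per antibody (n = 1), so the values have no replicate error and no difference was tested. The ranges in brackets are 95% binomial intervals, exact by the Clopper-Pearson method. They cover counting error only, and neighbouring peaks are not independent. No annotation of build mm9 was used, so peaks are given by position, no gene is named, and neither start sites nor the direction of transcription is known.

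Pol II peaks were narrower than H3K4me3 peaks, and they lay closer together. Their median width was 683 bp for Pol II (quartiles 499 and 1049) and 1685 bp for H3K4me3 (quartiles 1084 and 2547). Together they covered 26.8 Mb for Pol II and 56.1 Mb for H3K4me3, which is 1.03% and 2.17% of the span that the NIH3T3 lists cover on chromosomes 1 to 19 and X. The median gap between neighbouring peaks was 7.99 kb in the Pol II list and 19.8 kb in the H3K4me3 list. Gaps under 1 kb followed 23.7% of the Pol II peaks and 10.4% of the H3K4me3 peaks, and the smallest gap was 2 bp in each list, so 1 stretch of signal can stand as several peaks.

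At the widths as called, most Pol II peaks lay at H3K4me3, and a little over 50% of the H3K4me3 peaks carried Pol II. With an overlap of at least 1 bp, 18374 Pol II peaks (60.8%, 60.2 to 61.3) met H3K4me3. In the other direction 14875 H3K4me3 peaks (53.2%, 52.6 to 53.7) met Pol II. The 2 lists shared 18.3 Mb. That was 68.4% of all bases under Pol II peaks and 32.6% of all bases under H3K4me3 peaks. An overlap was therefore rarely marginal from the side of Pol II: 92.7% of the 18456 overlapping pairs had the Pol II peak wholly inside the H3K4me3 peak, and only 42 pairs had it the other way round. With at least 50% of the peak covered, 59.8% of Pol II peaks still lay in H3K4me3, whereas 19.3% of H3K4me3 peaks were covered to that extent by Pol II. The shares rest on the called widths. With centres within 1000 bp they were 52.0% for Pol II and 52.1% for H3K4me3, and with every peak set to 500 bp they were 41.1% and 43.9%, so that neither list then overlapped the other in most of its peaks.

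Width separated the H3K4me3 peaks with Pol II from those without. The median width was 2401 bp for H3K4me3 peaks with Pol II (quartiles 1767 and 3191) and 1143 bp for those without (869 and 1532). In 4 width groups of nearly equal size, Pol II was present at 14.9% (14.1 to 15.7) of the narrowest H3K4me3 peaks (243 to 1084 bp), at 31.8% (30.7 to 32.9) of the next (1084 to 1685 bp), at 71.3% (70.2 to 72.4) of the third group (1685 to 2547 bp) and at 94.6% (94.1 to 95.1) of the widest (2547 to 41813 bp). In 10 groups the share rose at every step, and its steepest part lay between 1549 bp and 2162 bp of median width, where it climbed from 40.0% through 58.7% to 76.8%. Among the 1000 widest H3K4me3 peaks, all at least 4799 bp, 992 overlapped Pol II, and all of the 100 widest did. A wide interval meets another list more easily than a narrow one. Counted per kilobase of H3K4me3, Pol II peaks numbered 0.183, 0.240, 0.365 and 0.373 from the narrowest to the widest of the 4 groups. The count per kilobase thus also rose from the first to the third group. In the third and the widest group most peaks already met Pol II, with on average 1.07 and 1.48 Pol II peaks each. Nothing is therefore read from the similar counts in these 2 groups.

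Wider Pol II peaks also met H3K4me3 more often. Those at H3K4me3 had a median width of 840 bp (quartiles 582 and 1232), and those away from it 531 bp (460 and 700). The share at H3K4me3 was 36.5% in the narrowest of 4 groups (190 to 499 bp), then 48.5%, 73.4% and 84.7% in the widest (1049 to 39438 bp). Counted per kilobase of Pol II, H3K4me3 peaks numbered 0.857, 0.841, 0.874 and 0.504 from the narrowest to the widest group. A Pol II peak at H3K4me3 met on average only 1.001 to 1.008 H3K4me3 peaks in these groups. The count per kilobase must therefore fall in wide peaks, and nothing is read from it about the part of width. In 10 groups the curve was flat at both ends. The 3 narrowest groups stood at 37.4%, 35.6% and 38.5%, and the 2 widest at 86.0% and 84.1%, with overlapping intervals. Of the 100 widest Pol II peaks, all at least 5031 bp, 86 met H3K4me3.

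**Figure D1:**
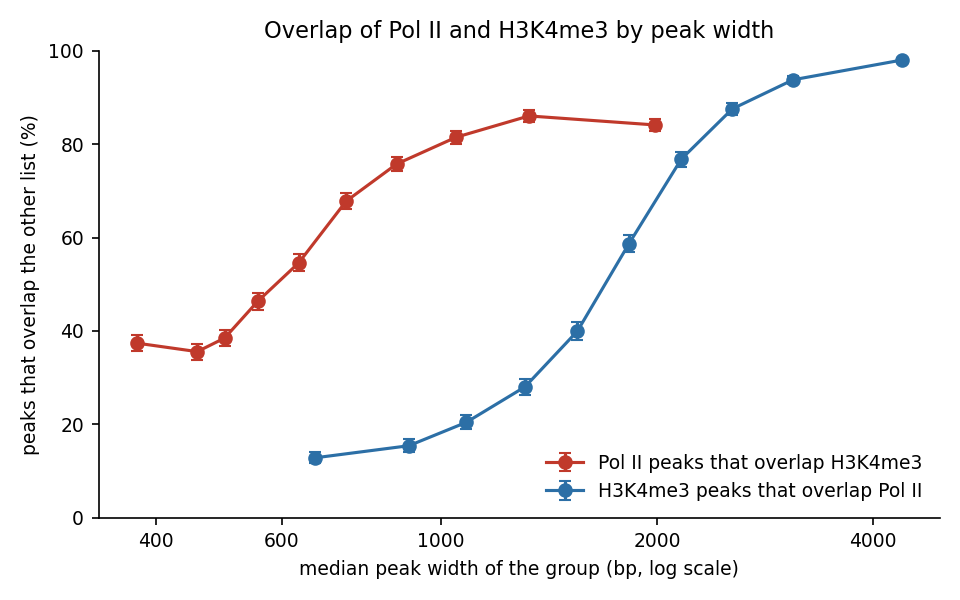
Share of peaks that overlap the other list (vertical axis, %) in 10 width groups of each list, placed at the median width of the group (horizontal axis, bp, log scale), for Pol II (red) and H3K4me3 (blue). Bars are exact 95% binomial intervals. The H3K4me3 curve climbs from 12.9% to 98.0%, and the Pol II curve runs from 37.4% to a plateau of 84.1% to 86.0%.

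Where the 2 met, a single Pol II peak in a single H3K4me3 peak was the usual arrangement. Of the H3K4me3 peaks with Pol II, 12225 (82.2%) held 1 Pol II peak, 1992 (13.4%) held 2, 469 (3.15%) held 3, and 189 (1.27%) held 4 or more. Those 2650 H3K4me3 peaks with 2 or more made up 17.8% (17.2 to 18.4) of the H3K4me3 peaks with Pol II, but 33.9% of all Pol II peaks at H3K4me3 lay in them. The reverse was rare: 81 Pol II peaks (0.441% of those at H3K4me3) reached across 2 or more H3K4me3 peaks.

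The number of Pol II peaks followed the width of the H3K4me3 peak. The median H3K4me3 width was 2227 bp with 1 Pol II peak, 3452 bp with 2, 4995 bp with 3, 6478 bp with 4 and 7966 bp with 5. Among H3K4me3 peaks with Pol II, the share with 2 or more was 1.15% in the narrowest of 4 width groups, then 3.23%, 6.53% and 33.8% in the widest. In the widest of 10 groups it reached 56.1%. Neighbouring Pol II peaks inside the same H3K4me3 peak were separated by a median gap of 251 bp (quartiles 90 and 631), and their centres by 1322 bp. Of these 3581 neighbouring pairs, 27.4% had a gap under 100 bp. With all peaks of 1 list closer than 1000 bp joined, the share of H3K4me3 peaks with 2 or more Pol II peaks fell to 6.32%, so the count of Pol II peaks per site depends on how finely a stretch of signal was cut.

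**Figure D2:**
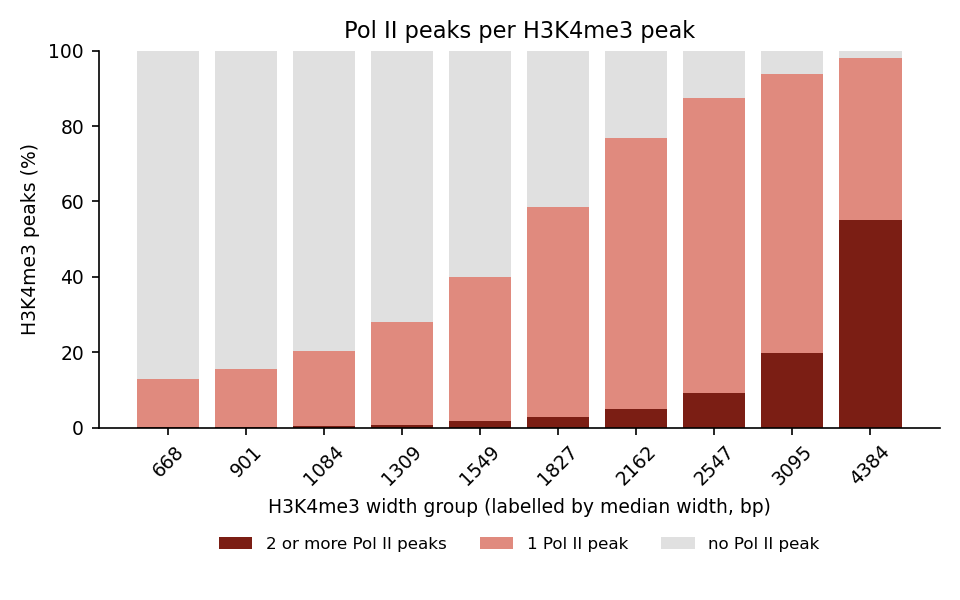
Share of H3K4me3 peaks (vertical axis, %) with 2 or more (dark red), 1 (light red) or no (grey) overlapping Pol II peak, in 10 H3K4me3 width groups labelled by their median width (horizontal axis, bp). Peaks with 2 or more Pol II peaks are the larger class only in the widest group, where they are 56.1% of the H3K4me3 peaks with Pol II.

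Pol II sat near the middle of the H3K4me3 peak. Over all 18456 overlapping pairs the Pol II centre fell in the central part of the H3K4me3 peak, from 1/3 to 2/3 of its width, in 63.7% (63.0 to 64.4), in an outer part in 34.2% and beyond an end in 2.03%. The median position was 0.50 of the way along the peak, with quartiles at 0.38 and 0.62, and the median distance between the 2 centres was 294 bp. The low and the high outer part held 3250 and 3070 centres. Since strand is unknown, a shift along the direction of transcription would be split between these ends and could not be seen here.

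The 12114 pairs of exactly 1 Pol II and 1 H3K4me3 peak were more central, with 77.4% (76.7 to 78.2) in the central part and a median distance between centres of 192 bp. A peak inside a narrow interval has little room to be anywhere but its middle. For the 11509 of these pairs with Pol II wholly inside, 80.0% (79.2 to 80.7) lay in the central part, and even placement of each Pol II peak along the room left in its H3K4me3 peak would put 61.3% there. Observed and evenly placed shares stood at 82.0% and 76.4% in the narrowest of 4 H3K4me3 width groups, and at 77.6% and 58.6% in the widest, and the gap was smallest in the narrowest group. The distance itself grew with width: the median between centres of 1-to-1 pairs was 86.0, 128, 177 and 311 bp from the narrowest to the widest group.

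At H3K4me3 peaks with several Pol II peaks, a smaller share of Pol II centres was central than in 1-to-1 pairs. In H3K4me3 peaks with 2 or more, 38.0% (36.8 to 39.3) of Pol II centres lay in the central part. The widest Pol II peak of each such site was in the central part in 54.8% (52.9 to 56.7), and the remaining Pol II peaks in 25.6% (24.2 to 27.1), with 69.4% of them in the outer parts. For the Pol II peaks wholly inside these sites, the share in the central part was 42.1%, beside 45.8% for even placement. That placement treats each Pol II peak alone. Pol II peaks do not overlap each other, so those at 1 site cannot all take the middle, and nothing is read from the 2 values.

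**Figure D3:**
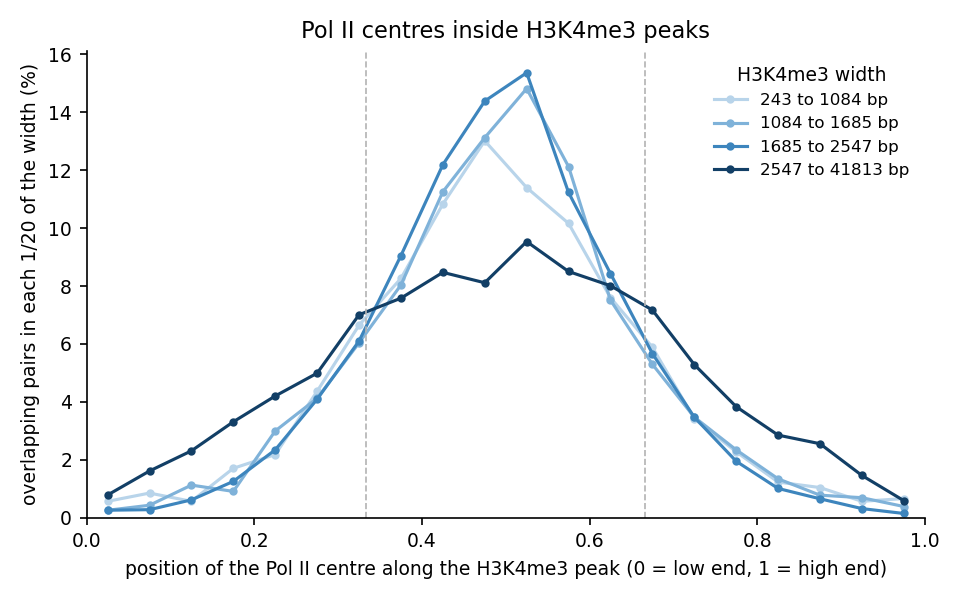
Position of the Pol II centre along the overlapping H3K4me3 peak (horizontal axis, from 0 at the low-coordinate end to 1 at the high end), as the share of overlapping pairs in each of 20 equal parts (vertical axis, %), by H3K4me3 width group. Dashed lines mark the central part, which holds 65.9%, 71.1%, 75.4% and 55.4% of the pairs from the narrowest to the widest group, and the widest group has the flattest curve.

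Set beside the other lists, a central position was also common in other lists. The centres of H3K9ac peaks, a mark of active promoters, lay in the central part of overlapping H3K4me3 peaks in 79.3% of pairs, those of UBF in 75.9%, and those of H4 hyperacetylation in 64.7%. Pol I stood at 56.0% and H3K9me3, a mark of silent chromatin, at 48.8%. The overlapping peaks differ in width, with medians of 841 bp for Pol II, 1771 bp for H3K9ac, 1144 bp for UBF, 1567 bp for H4 hyperacetylation, 268 bp for Pol I and 1204 bp for H3K9me3. Even placement was worked out for Pol II only, and the part of peak width in these shares was not tested. The differences between lists were not tested.

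The width of the 2 peaks went together. Across the 12114 1-to-1 pairs, Spearman's rho between Pol II width and H3K4me3 width was 0.63 and Pearson's r was 0.66, given as a description across sites that share gene activity and local signal depth. Median Pol II width was 486 bp in the narrowest H3K4me3 group, then 622, 849 and 1217 bp. A Pol II peak covered a median of 55.5% of its H3K4me3 peak in the narrowest group, 44.6% and 40.3% in the next groups and 38.1% in the widest. The Pol II peak was the wider of the pair in 160 cases (1.32%). Where it reached past 1 end of the H3K4me3 peak, in 575 of the 1-to-1 pairs, the median overhang was 111 bp, and the low end and high end were passed 276 and 299 times.

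The 11865 Pol II peaks outside H3K4me3 lay mostly in its neighbourhood. The median distance from edge to edge was 8.27 kb (quartiles 3.07 and 18.8). Of these peaks 9.63% were under 1 kb from an H3K4me3 peak, 26.4% between 1 and 5 kb, 2376 peaks between 5 and 10 kb, 37.5% between 10 and 50 kb, 3.84% between 50 and 100 kb and 2.49% farther. H3K4me3 peaks without Pol II were farther from the other list, with a median of 16.5 kb (quartiles 4.75 and 48.3), and 11.9% of them were over 100 kb from any Pol II peak, against 2.49% of the Pol II peaks outside H3K4me3. Isolated peaks were narrow. Pol II peaks outside H3K4me3 had a median width of 555 bp at 1 to 5 kb and 419 bp beyond 100 kb. H3K4me3 peaks without Pol II had 1233 bp at 1 to 5 kb and 1004 bp beyond 100 kb, but were narrowest, at 959 bp, under 1 kb.

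Pol II peaks outside H3K4me3 but within 5 kb of it mostly flanked an H3K4me3 peak that carried Pol II itself. Of the 4271 outside peaks within 5 kb of H3K4me3, the nearest H3K4me3 peak overlapped Pol II in 84.6% (83.5 to 85.7), beside 53.2% of all H3K4me3 peaks. The first share counts Pol II peaks, so an H3K4me3 peak with several flanking Pol II peaks counts several times, up to 8. The second counts each H3K4me3 peak once, so the 2 shares are not like for like. These outside peaks flanked 2733 H3K4me3 peaks, of which 1260 had them only on the low side, 1266 only on the high side and 207 on both. Among the 958 H3K4me3 peaks with 2 or more such flanking Pol II peaks, 207 (21.6%) had them on both sides.

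Runs of Pol II peaks, which include the outside peaks above, were also compared with H3K4me3. Pol II peaks less than 5 kb apart were joined into runs, a distance chosen after the data were seen. Single Pol II peaks, 12256 in number, lay at H3K4me3 in 73.7%, and the share of member peaks at H3K4me3 fell with the length of the run, to 69.2% in runs of 2, 56.7% in runs of 3 to 4, 43.3% in runs of 5 to 9 and 32.7% in runs of 10 or more. A longer run has more chances to meet H3K4me3, and 91.4% (87.0 to 94.7) of the 232 runs of 10 or more met at least 1 H3K4me3 peak. Of the 2383 runs of 3 or more peaks, 482 met no H3K4me3 peak, 925 met 1 and 976 met 2 or more. The place of the members at H3K4me3 was worked out only for runs that met exactly 1 H3K4me3 peak.

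Of the runs of 3 or more that met exactly 1 H3K4me3 peak and went beyond it, 725 in all, the members at H3K4me3 stood at an end of the run in 656 (90.5%, 88.1 to 92.5). If each place along the run were equally likely, 60.7% would stand at an end. In runs of 10 or more these values were 85.2% (72.9 to 93.4, 46 of 54 runs) and 17.9%. The widest Pol II peak of the run was one of those at H3K4me3 in 78.8% (75.6 to 81.7) of the 725. That share fell with run length, from 88.3% in runs of 3 to 59.3% in runs of 10 or more (32 of 54 runs). The share for the case that each member were equally likely to be the widest was not worked out. In 144 runs of 4 or more whose only member at H3K4me3 was at an end, median Pol II width was 1269 bp for that member and 597, 560 and 579 bp for the next 3 in order away from it. By these medians, the Pol II peak at the marked end was broader than those next to it. Over the whole Pol II list the medians were 840 bp at H3K4me3 and 531 bp outside it, so such a difference is not particular to runs.

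In the longest runs a minority of the Pol II peaks lay at H3K4me3, although each run met 2 to 7 H3K4me3 peaks. On chromosome 10, from 119793168 to 119915762, a run of 66 Pol II peaks met 5 H3K4me3 peaks and had 7 members at H3K4me3, 14 at H3K9ac, 32 at H4 hyperacetylation and 0 at H3K9me3. A run of 44 on chromosome 15, from 77587181 to 77673195, met 6 H3K4me3 peaks and had 14 members there, 22 at H3K9ac, 25 at H4 hyperacetylation and 1 at H3K9me3. The run of 37 on chromosome 17, from 78746233 to 78817742, met 7 H3K4me3 peaks and had 9 members there, 13 at H3K9ac, 20 at H4 hyperacetylation and 0 at H3K9me3. Acetylation thus reached more members than H3K4me3 did in each of these runs. Chromosome 15 held a further run of 36, from 64155479 to 64218410, which met 4 H3K4me3 peaks and had 9 members there, 17 at H3K9ac, 28 at H4 hyperacetylation and 3 at H3K9me3. In the fifth longest, 35 peaks on chromosome 11 from 31500962 to 31566350, 2 H3K4me3 peaks were met by 1 member, and 3 members lay at H3K9ac, 11 at H4 hyperacetylation and 10 at H3K9me3. These 5 runs were named after their values were seen.

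Where 1 of a pair of close H3K4me3 peaks carried Pol II, it was usually the wider one. Of 2919 pairs of H3K4me3 peaks under 1 kb apart, both overlapped Pol II in 25.7%, 1 of the 2 did in 50.7% and neither in 23.6%. With Pol II at 53.2% of all H3K4me3 peaks, nothing is read from this split. Where 1 did, it was the wider of the pair in 91.1% (89.5 to 92.5). Over the whole list, Pol II was present at 14.9% of the narrowest and 94.6% of the widest of 4 H3K4me3 width groups. No such share was worked out for pairs farther apart, so nothing particular to close pairs is read from it. A single Pol II peak bridged both members in 78 pairs.

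Acetylation was common at H3K4me3, with or without Pol II, and rare at Pol II outside H3K4me3. Pol II peaks at H3K4me3 also overlapped H3K9ac in 96.7% and H4 hyperacetylation, a mark of open chromatin, in 95.8%. For Pol II peaks outside H3K4me3 the shares were 7.01% and 14.7%, and 16.6% (16.0 to 17.3) met at least 1 of the 2. The gap was present in every Pol II width group. In the narrowest of 4 Pol II width groups, H3K9ac was met by 88.8% of peaks at H3K4me3 and 5.29% of those outside, and in the widest by 99.7% and 14.5%. Within 1 kb of an H3K4me3 peak, 45.1% of the outside Pol II peaks met an acetylation mark, against 10.3% at 10 to 50 kb and 25.3% (20.5 to 30.7) beyond 100 kb. H3K4me3 peaks differed less by Pol II: H3K9ac was present at 96.8% of those with Pol II and 71.4% of those without, and H4 hyperacetylation at 97.4% and 75.6%. Those with Pol II were also wider, and the gap was smaller in wide peaks. From the narrowest to the widest of 4 H3K4me3 width groups, H3K9ac stood at 74.1%, 92.3%, 99.3% and 99.95% with Pol II. Without Pol II it stood at 55.3%, 80.0%, 93.3% and 98.4%.

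The silent mark H3K9me3 was found at 19.9% (19.3 to 20.6) of H3K4me3 peaks with Pol II and 7.16% (6.72 to 7.61) of those without, and the gap depended on width in an uneven way. In the narrowest H3K4me3 group the shares were 28.0% (25.2 to 30.8) with Pol II and 7.05% without. They were 10.7% and 6.31% in the next group, 12.6% and 8.92% in the third, and 27.2% and 10.1% in the widest. The 291 narrow H3K4me3 peaks with both Pol II and H3K9me3 stood apart in other ways. Of them, 13.7% lay on unplaced contigs or chromosome Y, against 0.533% of the narrow peaks with Pol II but no H3K9me3, and 8.93% had another H3K4me3 peak within 1 kb, against 32.0%. Whether the contigs play a part in the higher share was not tested.

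Several of the widest peaks were shared by most lists. On chromosome 9 a Pol II peak from 2999890 to 3038581 (38691 bp) almost coincided with an H3K4me3 peak from 2999852 to 3038780 (38928 bp), and H3K9ac, H4 hyperacetylation and H3K9me3 had peaks there as well. This block lies at the first coordinates that either list uses on that chromosome. No input signal or mappability was used here, so their part in such wide shared peaks was not tested. The widest Pol II peak, on chromosome 15 from 75998760 to 76038198 (39438 bp), was covered to 51.5% by 1 H3K4me3 peak of 21573 bp, and also met Pol I and H3K9me3. On chromosome 11 a Pol II peak from 3026608 to 3037888 lay wholly inside an H3K4me3 peak from 3021767 to 3048924. That H3K4me3 peak also met H3K9me3 and held 4 Pol II peaks over 62.4% of its 27157 bp.

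Other broad sites differed in how densely Pol II filled them. The widest H3K4me3 peak, on chromosome 8 from 126078023 to 126119836 (41813 bp), held 7 Pol II peaks that covered 9.004% of it. On chromosome 19, H3K4me3 from 5792986 to 5819215 held 8 Pol II peaks over 80.5% of its 26229 bp. Farther along that chromosome, a Pol II peak of 14344 bp from 5836813 to 5851157, met 3 H3K4me3 peaks, more than any other Pol II peak, and was covered by them to 95.4%. The largest number of Pol II peaks in 1 H3K4me3 peak was 12, on chromosome 18 from 75525757 to 75540633, over 78.1% of 14876 bp. A site on chromosome 6 (47616302 to 47628748) also held 7, with 86.2% covered, and so did one on chromosome 3 (88418531 to 88430694), with 52.5% covered.

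The widest peaks without a partner were much narrower than these. Among Pol II peaks outside H3K4me3 the widest spanned 6889 bp on chromosome 17, between 56153569 and 56160458, 2.54 kb from the nearest H3K4me3 peak, and overlapped none of the other NIH3T3 lists. Next came 2 on chromosome 11, from 79539825 to 79546498 and from 5768276 to 5774898, both with H3K9ac and H4 hyperacetylation, and 2 on chromosome 15, from 85528761 to 85534728 and from 77589590 to 77595313. The last of these belongs to the run of 44 described above. Among H3K4me3 peaks without Pol II the widest spanned 6631 bp on chromosome 8, between 86551933 and 86558564. The next spanned 6385 bp on chromosome 2 (179947420 to 179953805), 5843 bp on chromosome 6 (29194240 to 29200083) and 5777 bp on chromosome 9 (78037888 to 78043665). All 4 carried H3K9ac and H4 hyperacetylation, and their nearest Pol II peaks were 4.31 to 20.9 kb away.

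Across the genome the densities of both lists followed each other closely. In 2647 bins of 1 Mb on chromosomes 1 to 19 and X, Spearman's rho between the number of Pol II and of H3K4me3 peaks was 0.94 and Pearson's r was 0.87. These are descriptions: bins share gene density, mappability and copy number with both lists, and neighbouring bins are not independent. Peaks of both lists occurred in 1962 bins, of neither in 512, of Pol II alone in 46 and of H3K4me3 alone in 127. In the 2135 bins with any peak the medians were 7 Pol II peaks (quartiles 2 and 17) and 9 H3K4me3 peaks (4 and 19), and rho was 0.91. Within single chromosomes rho over such bins ran from 0.82 on the X chromosome to 0.93 on chromosome 17. Pol II peaks outside H3K4me3 also followed H3K4me3 density, with rho 0.78, against 0.96 for Pol II peaks inside it. For H3K9ac and H3K4me3 rho was 0.98, above that of Pol II.

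The relation was not proportional. Per H3K4me3 peak, bins with 1 to 2 H3K4me3 peaks held 0.933 Pol II peaks and those with 3 to 5 held 0.845. Bins with 6 to 10 H3K4me3 peaks held 0.819 Pol II peaks per H3K4me3 peak, those with 11 to 20 held 0.959, those with 21 to 30 held 1.10 and those with 31 to 71 held 1.32. The 213 bins of this last class contained 11336 Pol II peaks. From 6 H3K4me3 peaks upward the share of Pol II peaks inside H3K4me3 was 66.2%, 60.8%, 60.0% and 59.1%, so Pol II peaks inside and outside H3K4me3 both grew faster in number than H3K4me3 peaks.

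Named bins show both sides of the relation. The bin with the most Pol II peaks, on chromosome 10 from 79000001 to 80000000, held 173 Pol II and 55 H3K4me3 peaks, and the next bin on that chromosome 164 and 64. On chromosome 11 the bin from 97000001 held 143 and 69, and on chromosome 19 the bin from 5000001 held 142 and 71, and no bin had more H3K4me3 peaks. A large Pol II excess at moderate H3K4me3 counts, above the median of 9 but below the upper quartile of 19, was seen on chromosome 15 from 64000001, with 96 Pol II and 17 H3K4me3 peaks, and on chromosome 17 from 78000001, with 92 and 15. These 2 bins hold the runs of 36 and 37 Pol II peaks given above. The largest excess of H3K4me3 was on chromosome 13, where the bin from 21000001 held 24 Pol II and 49 H3K4me3 peaks, and that from 23000001 held 33 and 55. In those 2 bins 22 and 29 H3K4me3 peaks met Pol II, and 21 and 32 of the Pol II peaks lay inside H3K4me3, so 3 and 1 lay outside it. The bin on chromosome 10 from 24000001 held 3 and 22, that on chromosome 18 from 38000001 held 20 and 39, and that on chromosome 15 from 58000001 held 13 and 30.

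**Figure D4:**
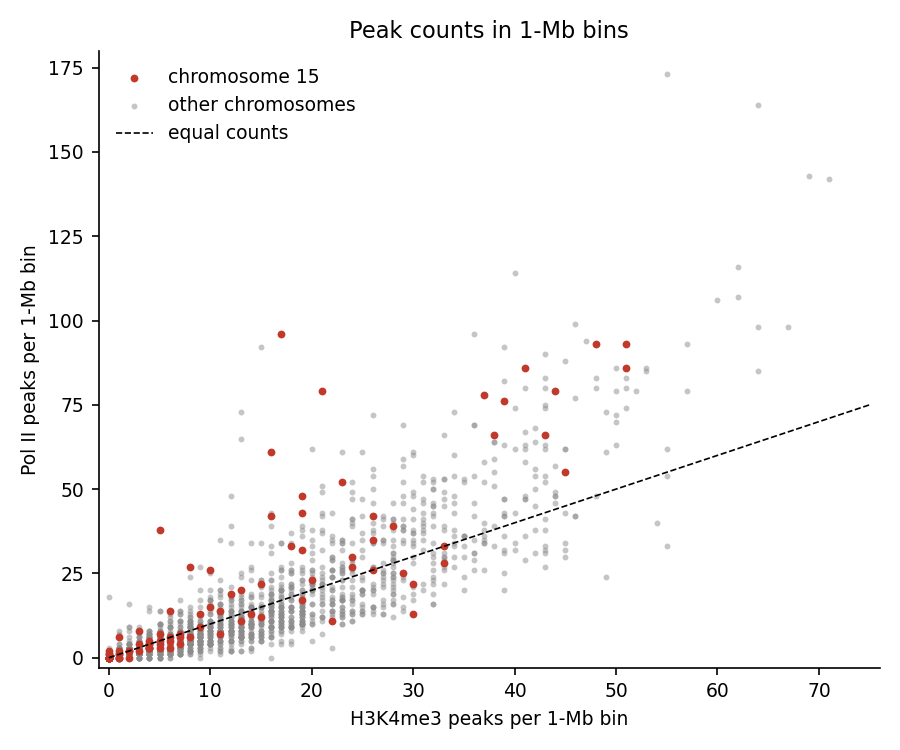
Pol II peaks (vertical axis) against H3K4me3 peaks (horizontal axis) in each of 2647 bins of 1 Mb, with chromosome 15 in red and the other chromosomes in grey, and a dashed line at equal counts. Bins with over 30 H3K4me3 peaks lie mostly above the line, up to 173 Pol II peaks, and several chromosome 15 bins lie far above it.

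Chromosomes differed in how many Pol II peaks they had for their H3K4me3 peaks. Chromosome 15 held 2008 Pol II and 1253 H3K4me3 peaks, a ratio of 1.60, against 0.742 to 1.33 on the other 19 chromosomes. Chromosome 17 followed at 1.33 and chromosome 11 at 1.31, and the lowest were chromosome 13 at 0.742 and X at 0.764. The differences lay mainly in Pol II outside H3K4me3. Pol II peaks inside H3K4me3 numbered 0.726 per H3K4me3 peak on chromosome 15 and 0.572 on chromosome 13, and those outside 0.876 and 0.170. Accordingly, 45.3% (43.1 to 47.5) of the Pol II peaks of chromosome 15 lay at H3K4me3, against 77.1% (74.1 to 79.9) on chromosome 13 and 81.1% (77.3 to 84.6) on X. The share of H3K4me3 peaks with Pol II moved less, from 47.6% on chromosome 12 to 58.6% on chromosome 17, and was 55.5% on chromosome 15.

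Chromosome 15 also ranked high for other lists except UBF, in ratios that share the same H3K4me3 count and are thus not independent. Per H3K4me3 peak it had the most peaks of H3K9ac (1.08, against 0.926 to 1.05 elsewhere), of H4 hyperacetylation (1.76, against 1.13 to 1.65) and of Pol I (0.0958, against 0.0253 to 0.0718), was second for H3K9me3 (1.05) and 18th of 20 for UBF. NIH3T3 cells have an abnormal karyotype, and no copy number or input signal was used here, so the part of copy number in these ratios was not tested.

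**Figure D5:**
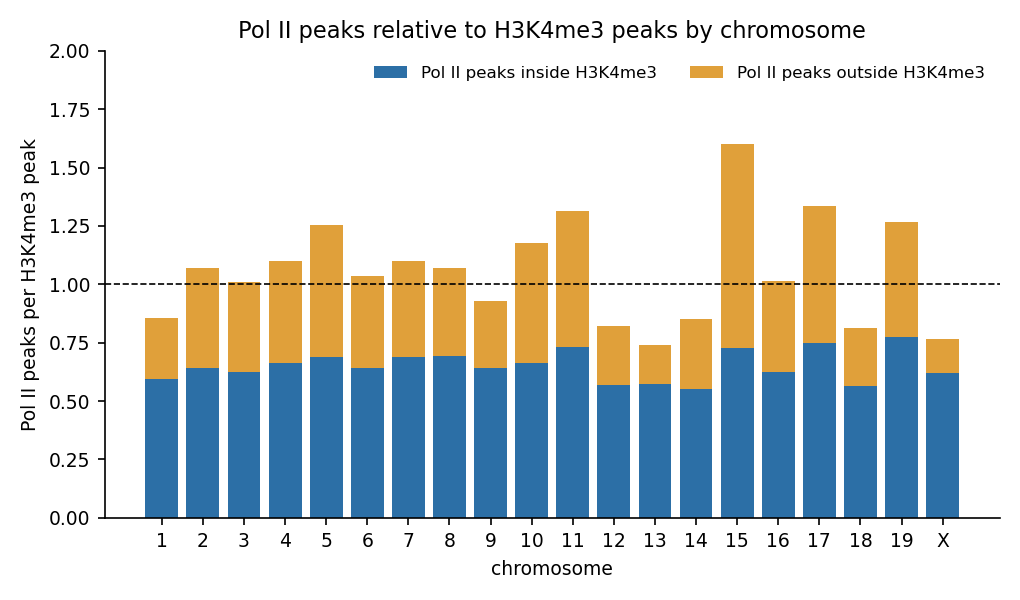
Pol II peaks per H3K4me3 peak (vertical axis) on chromosomes 1 to 19 and X (horizontal axis), divided into Pol II peaks inside (blue) and outside (orange) H3K4me3, with a dashed line at 1. The blue part runs from 0.553 to 0.774, and the orange part from 0.144 on X to 0.876 on chromosome 15.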

How the data were processed

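ChIP-seq peak lists of NIH3T3 cells were used as the authors deposited them, 1 list per antibody, in 3 columns of chromosome, start and end. Per the file headers these values are peak coordinates in bp, a unit of the kind other, without score or count. Per the submitters' processing notes, the tools were CASAVA 1.8.2, BWA and Picard, and mm9 was the mouse build. How peaks were called and filtered, and any pooling of libraries, remain not given in the sources used here. Whether coordinates count from 0 or 1 is not known either. Counting touching peaks as overlapping would add 0 Pol II peaks.

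Lines were split at carriage returns. Overlap meant at least 1 bp shared. Width groups were formed by rank, bins used the peak centre, and intervals are exact 95% binomial intervals. Python 3.11.15, pandas 2.3.3 and scipy 1.17.1 were used, and the overlap code was tested on simulated lists. No difference was tested, since each list is 1 sample. Peaks and bins named were taken from the top 5 by width, by number of partners, by count and by difference of counts, except where stated. Not all of these are described. The peaks compared, the lists and the rules were chosen with earlier results of these data known. A contig peak among the top 5 H3K4me3 peaks without Pol II is not described. Alternatives changed the overlap rule, widths, chromosomes, bins and the joining of peaks. Runs of Pol II peaks, neighbouring H3K4me3 peaks, even placement, the narrow H3K9me3 sites, the chromosome ratios of Pol II inside and outside H3K4me3 and the alternative without chromosome 15 were added after the data were seen.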

Additional observations from a re-analysis of the deposited data

How the results depend on the processing

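The main values were 60.8% of Pol II peaks in H3K4me3, 53.2% of H3K4me3 peaks with Pol II, 17.8% of the H3K4me3 peaks with Pol II holding 2 or more Pol II peaks, 63.7% of centres in the central part, a gap of 79.7 percentage points in Pol II share between the widest and narrowest H3K4me3 groups, and a Spearman coefficient of 0.94 across bins. The gap stayed above 0 and the coefficient positive throughout, but the order of both overlap shares did not hold with centres within 1000 bp or with peaks of 500 bp. When 50% coverage was required, the Pol II share was 59.8%, the H3K4me3 share 19.3% and the gap 24.5 points, where a Pol II peak covered a median of 41.4% of its H3K4me3 peak in 1-to-1 pairs. With centres within 1000 bp the shares were 52.0% and 52.1%. In the wider 50% of each list the values, in the order above, were 72.3%, 68.4%, 11.4%, 69.1%, 52.9 points and 0.95. With every peak set to 500 bp the first 3 were 41.1%, 43.9% and 1.38%, and with peaks closer than 1000 bp joined the first 5 were 65.0%, 56.1%, 6.32%, 66.2% and 78.0 points. Centres lay in the central part in 77.4% of 1-to-1 pairs and 73.0% for H3K4me3 peaks of 1 to 3 kb. With 10 width groups the gap was 85.1 points. The Spearman coefficient was 0.82 in bins of 100 kb, 0.96 in bins of 5 Mb, 0.96 over covered bases and 0.91 in bins with a peak. Without chromosome 15, left out after the data were seen, the Pol II share was 61.9%. The Pol II share was 60.7% without contigs and Y and 60.4% without chromosome X, and the Spearman coefficient was 0.94 in shifted bins. Runs joined at 2 kb and 10 kb had the H3K4me3 members at an end in 92.8% and 89.7%. No paired analysis was possible because each antibody has 1 list. The unknown depth and threshold limit every share, since a peak absent from a list may be present below its threshold.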

Other observations

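Unplaced contigs carried 173 Pol II and 226 H3K4me3 peaks. Of these, 119 Pol II peaks (68.8%, 61.3 to 75.6) met H3K4me3, and 107 H3K4me3 peaks (47.3%, 40.7 to 54.1) met Pol II. Chromosome Y held 6 Pol II and 3 H3K4me3 peaks, of which 2 each overlapped the other list. Of the 2135 bins with a peak, 194 (9.09%) held 50% of the Pol II peaks outside H3K4me3, and the fullest bin held 91. No such share was worked out for Pol II peaks inside H3K4me3 or for H3K4me3 peaks, so nothing particular to the outside peaks is read from it. On the X chromosome 4 of 109 bins held 50% of the outside Pol II peaks, which numbered only 89 there.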
